A study of Homo sapiens with 4 samples.

Results

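The response of T-47D cells to JPH203 was taken from 2 of the 4 Affymetrix U133 Plus 2.0 arrays in the series. T-47D is a luminal, estrogen receptor-positive breast cancer line. The cells were grown in RPMI1640 medium and given either 100 μM JPH203 or the vehicle Captisol, a modified cyclodextrin that the labels put at the same concentration, for 24 h. The other 2 arrays hold MDA-MB-231, a line that is triple negative (without the hormone receptors and HER2), under the same 2 conditions. Each condition was measured on 1 array, so no ratio in this text has an error, a replicate check or a p-value. A gene entered the description when at least 1 probe set naming that gene alone had a signal of at least 100 on both T-47D arrays. This held for 6451 of 19775 genes, and the brightest such probe set gave the value of the gene. The ratio of JPH203 over Captisol was taken after removal of its trend on signal, and "rose" and "fell" are written of ratios of at least 2 or at most 0.5.

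JPH203 blocks LAT1, the product of SLC7A5, which pairs with the heavy chain encoded by SLC3A2 and carries leucine and other large neutral amino acids into the cell. When amino acids run short, uncharged tRNA activates the kinase GCN2, which phosphorylates eIF2α and thereby slows general translation while favouring translation of ATF4. ATF4 is a bZIP transcription factor that drives genes for amino acid synthesis, amino acid uptake and tRNA charging, and it also induces DDIT3, which encodes CHOP. Amino acid supply also feeds mTORC1, which promotes cell cycle entry and the activity of SREBP at genes of lipid synthesis. T-47D cells proliferate in response to estrogen and growth factors.

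With JPH203, 170 of the 6451 genes (2.64%) rose and 114 (1.77%) fell, which is 4.4% of the genes in either direction. The central 95% of the genes had ratios between 0.523 and 2.01. In MDA-MB-231 cells, processed in the same way, 6 of 6792 genes (0.0883%) rose and 1 (0.0147%) fell, which is 0.103% in either direction, and the central 95% of ratios lay between 0.776 and 1.32. The difference between the lines was not tested. At the threshold, the last genes inside were ORC4 at a ratio of 2.0025 and MYOF at 0.4998. The first genes outside were BTF3L4 at 1.9998 and TUG1 at 0.5005. The threshold crosses a dense range, as 121 genes lay between 1.9-fold and 2.1-fold higher and 88 between 1.9-fold and 2.1-fold lower.

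The T-47D label was borne out by its markers, since all 15 luminal markers had a signal of at least 100 on both T-47D arrays, whereas this held for 3 of 16 mesenchymal markers. On both MDA-MB-231 arrays 7 of the luminal and 15 of the mesenchymal markers reached 100. Of 9 fibroblast markers only COL1A1 reached 100, and none of 9 leukocyte or 7 endothelial markers did, with the summed signal of the leukocyte markers at 95.6 and 131 and that of the endothelial markers at 79.2 and 65.7. In RNA from whole cultures, fewer cells of a type and less RNA per cell cannot be told apart. The 3-prime over 5-prime signal of ACTB was 1.39 on the Captisol array and 1.72 on the JPH203 array, and that of GAPDH was 0.940 and 0.867. The poly-A spike-in transcripts were 1.56 times as bright on the JPH203 array, against 0.927 times in MDA-MB-231 cells. The part of RNA quality and of the spike-in difference in the results was not tested.

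Bright probe sets were shifted upward with JPH203 as a whole. The trend of the deposited ratio on mean signal ran from 0.907 at a signal of 200 to 1.03 at 1000 and 1.38 at 10000. Ratios were read relative to it, which sets the typical ratio at every signal level to 1. Without this step 142 genes were higher and 153 lower, so that 48.1% of the called genes were higher in place of 59.9%. When the arrays were scaled to the poly-A spike-ins, the median log2 ratio of all genes was -0.66, with 19 genes higher and 1655 lower. All directions given here are therefore relative to the typical gene of similar signal.

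**Figure D1:**
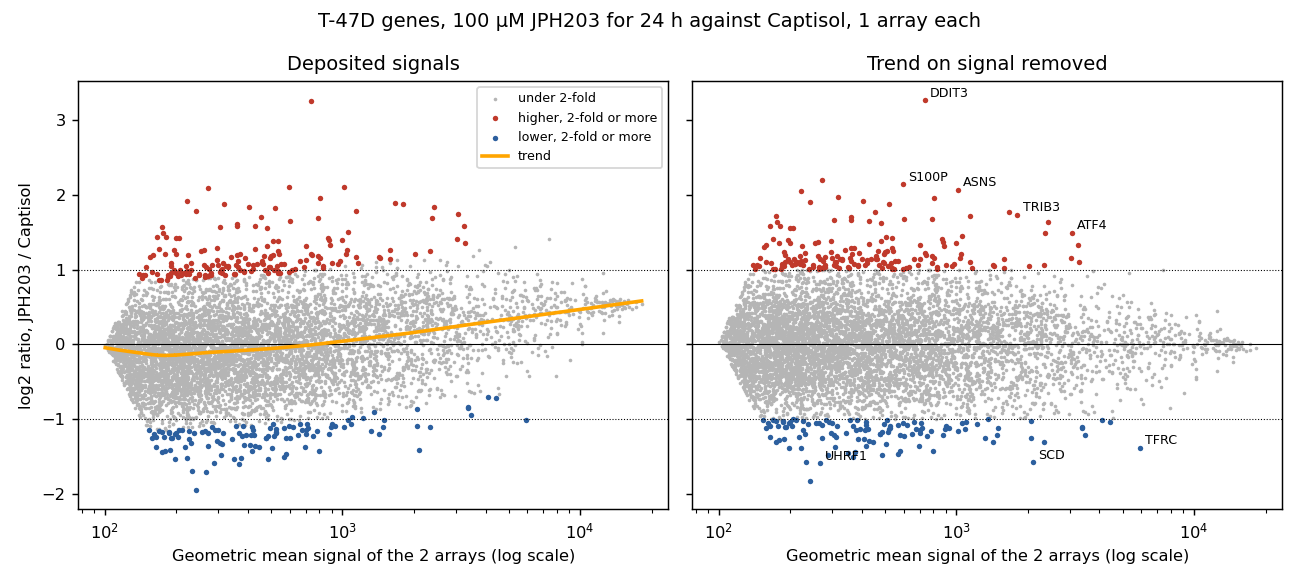
Each point is 1 of the 6451 genes on the T-47D arrays, with the geometric mean signal on a log x axis and the log2 ratio of JPH203 over Captisol on the y axis. The left panel uses the deposited signals with the trend in orange, which reaches a ratio of 1.38 at a signal of 10000, and the right panel the ratios after its removal; red and blue mark the 170 genes that rose and the 114 that fell.

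Probe sets of the same gene are separate readings of the same 2 RNA samples, so they speak to hybridization and not to variation between cultures. Among 1968 genes with at least 2 probe sets above the minimum, the log2 ratios of the brightest and the second brightest had a Pearson's r of 0.774 across genes, which are not independent replicates. Their median absolute difference was 0.19 on the log2 scale, or 1.14-fold, and 95% differed by less than 0.68 on that scale. In 96 of these genes the brightest probe set reached 2-fold, and in 81 of them another probe set moved the same way by at least 1.5-fold with none opposing it by that much. These are called supported below. They comprise 41 genes that rose, 2.08% of the 1968, and 40 that fell, 2.03%. AHNAK, which encodes a giant scaffold protein, was the only gene whose probe sets above the minimum opposed each other by 2-fold, with 1966 and 881 on the brightest, a ratio of 0.421, and 100.0 and 218 on a dim one, a ratio of 2.37.

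**Figure D2:**
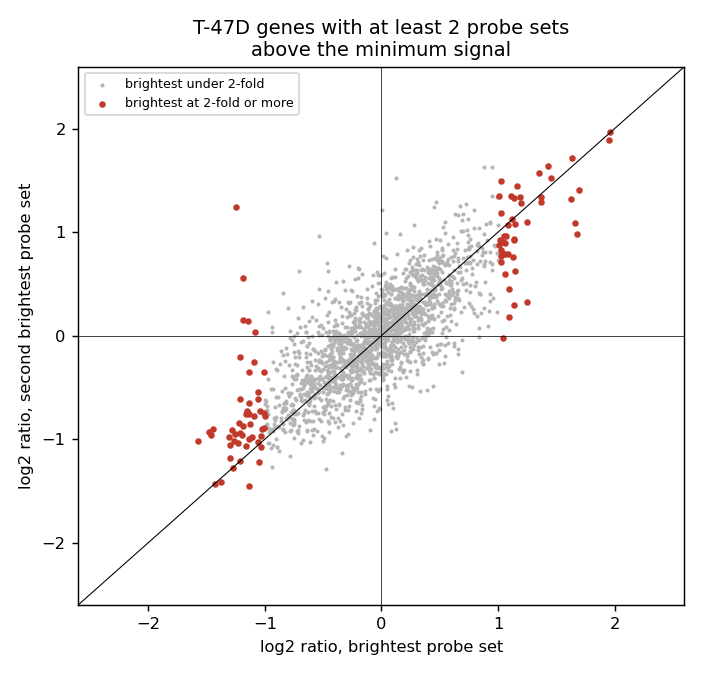
Each point is 1 of 1968 T-47D genes with at least 2 probe sets above the minimum signal, with the log2 ratio of the brightest on the x axis and of the second brightest on the y axis. Red marks the 96 genes whose brightest probe set reached 2-fold, 90 of which moved the same way on the second; the diagonal is equality.

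The ATF4 arm of the amino acid response held the largest rise in these cells. A list of ATF4, CHOP and bZIP regulators, called the bZIP list below, also holds TRIB3, which is not a bZIP gene, and ATF6. Of its 15 measured genes, 5 rose and none fell, beside 2.64% of all genes. The list had a median log2 ratio of 0.40 against 0.00 for all genes. DDIT3, encoding the stress transcription factor CHOP, had 238 with Captisol and 2269 with JPH203, a ratio of 9.57. TRIB3, a pseudokinase downstream of ATF4 and CHOP that restrains both, went from 945 to 3454, a ratio of 3.31. ATF4 mRNA itself went from 1676 to 5593, a ratio of 2.82. CEBPG, a dimerization partner of ATF4, followed at 225 and 508, a ratio of 2.40. ATF6, a membrane-bound sensor of endoplasmic reticulum stress, was near the threshold with 232 and 444, a ratio of 2.04. CEBPB and ATF3, 2 further stress-inducible bZIP genes chosen after their values were seen, were at 1.85 and 1.502 and did not reach 2-fold. No gene of this list had a second probe set above the minimum that could support its call.

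Among 20 measured effectors of ATF4, ASNS and PSAT1 rose and NDRG1 fell. Of the 20, 18 had a ratio above 1 and the list median was 0.45. Of all genes 2.64% rose, 1.77% fell, and 3251 of 6451 had a ratio above 1. ASNS, asparagine synthetase, had a signal of 488 with Captisol and 2105 with JPH203, a ratio of 4.18. PSAT1, an aminotransferase of serine synthesis, had 193 and 361, a ratio of 2.02 that fell below 2-fold without trend removal. EIF4EBP1, a translational repressor downstream of mTORC1 and named after its value was seen, stood at 1.999 just below the threshold. In MDA-MB-231 cells the same probe sets had a median log2 ratio of 0.39 over 18 genes, with ASNS at 9.03 and PSAT1 at 2.51, the only genes that rose in both lines. The bZIP list had a median of 0.21 over 11 genes in MDA-MB-231 cells and none of them reached 2-fold. The ATF6 call was lost without trend removal, where its log2 ratio was 0.93.

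A composite element bound by ATF4 with C/EBP proteins, TGATGNAA, was searched on both strands of the 300 bases around the annotated start of each gene, 250 before and 50 after it, in RefSeq promoters of GRCh38.p14. Promoters were found for 5447 of the 6451 genes. The letters occurred in 96 of them, 1.76%, in 6 of 27 promoters of measured genes of the 2 ATF4 lists, 22.2%, and in 5 of 140 promoters of genes that rose, 3.57%. Of the 7 genes of the ATF4 lists at 2-fold with a promoter, only ASNS held a match, shown here because ASNS rose in both lines. It lies 68 bases before the start, at chr7:97872444-97872501 on the minus strand, printed 5′ to 3′ along the gene with the match in capitals. A match is a stretch of letters and not a measured binding site.
ASNS: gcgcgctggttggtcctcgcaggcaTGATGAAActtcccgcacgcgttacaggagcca

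Most amino acid transporters and synthesis enzymes stayed under 2-fold, which 4.4% of all genes reached. SLC7A5, encoding the LAT1 light chain that JPH203 blocks, had a ratio of 1.69, and SLC3A2, encoding its heavy chain, 1.34. Of 13 measured transporters, SLC6A6, the taurine transporter, fell from 296 to 124, a ratio of 0.465, and none rose. SLC38A2 and SLC38A1, carriers of glutamine and small neutral amino acids named after their values were seen, were at 0.53 and 0.59. Of 19 synthesis enzymes, ASNS and PSAT1 alone rose. GLUL, glutamine synthetase, was at 0.53, whereas PSPH, the last enzyme of serine synthesis, was at 1.68; both were chosen after their values were seen. Of 12 genes of folate one-carbon and methionine metabolism, the cytosolic enzyme MTHFD1 fell from 1490 to 693, a ratio of 0.451, while its mitochondrial relative MTHFD2 was at 1.66, again chosen after its value was seen. No cytosolic aminoacyl-tRNA synthetase of 18 reached 2-fold. These enzymes spanned ratios from 0.60 for LARS1 to 1.83 for YARS1, which charge leucine and tyrosine, both chosen after their values were seen. EIF2AK4, encoding GCN2, was at 1.01 and EIF2S1, encoding eIF2α, at 1.04. CTH had 137 and 95.5, the latter under the minimum, and no ratio is read for it.

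Lipid synthesis genes were among those that fell. Of 10 measured genes of fatty acid synthesis and desaturation 4 fell and none rose, beside 1.77% of all genes that fell, and the list had the lowest median log2 ratio of all lists with at least 5 measured genes, -0.83. SCD, the stearoyl-CoA desaturase that makes monounsaturated fatty acids, went from 3414 to 1289, a ratio of 0.336, with a second probe set at 0.493. ACLY, which supplies cytosolic acetyl-CoA, went from 3436 to 1594, a ratio of 0.406, with other probe sets at 0.442 and 0.595. FASN, fatty acid synthase, went from 395 to 177, a ratio of 0.485 on a single probe set. ACACA, acetyl-CoA carboxylase, had 461 and 189, a ratio of 0.440, but its second probe set was at 1.11. In the sterol branch 3 of 17 genes fell, none rose, and 15 of 17 had a ratio below 1, with a median of -0.48. SQLE, squalene epoxidase, had 927 and 390, a ratio of 0.430. DHCR7, which makes cholesterol from 7-dehydrocholesterol, had 552 and 244, a ratio of 0.469. Both had a second probe set on the same side, at 0.653 and 0.583. INSIG1, a sterol-responsive brake on SREBP processing, had 375 and 132, a ratio of 0.384. In MDA-MB-231 cells the medians were 0.06 over 6 genes and -0.06 over 15 genes. The sterol regulatory element letters TCACNCCAC were in 64 of the 5447 promoters, 1.18%, and in none of the 23 of these lists, which says only that these letters are not in the windows searched.

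The lists of DNA replication and of mitosis had medians of opposite sign. Of 34 measured genes of DNA replication and S phase, 5 fell and none rose, beside 1.77% of all genes that fell, and 25 had a ratio below 1, with a median of -0.26. UHRF1, which recruits the maintenance DNA methyltransferase to replicated DNA, fell from 480 to 148, a ratio of 0.333. DNMT1, that methyltransferase, fell from 409 to 181, a ratio of 0.476. RRM2, the regulated subunit of ribonucleotide reductase, fell from 1334 to 583, a ratio of 0.431, with the same fall on its second probe set at 0.432. The replicative helicase subunits MCM4 and MCM2 fell to ratios of 0.456 and 0.476, from 598 to 258 and from 833 to 385, and a second MCM4 probe set was at 0.366. MCM3 and MCM6, chosen after their values were seen, were at 0.57 and 0.59. UHRF1, DNMT1 and MCM2 rested on single probe sets, and UHRF1 and DNMT1 are also in the chromatin list.

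An E2F element, TTTCCCGC, was in 158 of the 5447 promoters, 2.90%, in 8 of 47 promoters of measured genes of the replication and G1 lists, 17.0%, and in 5 of 90 promoters of genes that fell, 5.56%. A second form, TTTGGCGC, was in 63 promoters, 1.16%, and in 4 of the 47, 8.51%. UHRF1 was the only gene of these lists at 2-fold with a match, and it is shown for that reason. The window is chr19:4909462-4909500 on the plus strand, 5′ to 3′ along the gene, and the capitals mark the reverse complement of TTTCCCGC, 14 bases before the start.
UHRF1: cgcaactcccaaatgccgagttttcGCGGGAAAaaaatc

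In the G2/M and mitosis list, 6 of 54 measured genes rose and 1 fell, beside 2.64% and 1.77% of all genes, 37 had a ratio above 1, and the median was 0.37. HMMR, a microtubule-associated protein of the spindle, rose from 409 to 1591, a ratio of 3.87, with a second probe set at 3.72. CDKN3, a phosphatase that acts on cyclin-dependent kinases, rose from 628 to 1781, a ratio of 2.73, with a second at 2.88. CDK1, the kinase that drives entry into mitosis, rose from 1328 to 3069, a ratio of 2.07, with others at 1.87 and 1.604. CKS2, a CDK1 accessory protein, had 2051 and 5236, a ratio of 2.14, and the kinetochore genes NUF2 and CENPU had ratios of 2.20 and 2.005, which were 1.998 and 1.94 without trend removal. KIF11, the motor that separates spindle poles, fell from 279 to 124, a ratio of 0.490. In MDA-MB-231 cells the list median was -0.12, and the same CDK1 probe set was at 0.759 there. Of 20 genes of the G1 list MNAT1 alone reached 2-fold, from 130 to 449, a ratio of 3.74; it encodes a subunit of the CDK-activating kinase. CCND1 and MYC, drivers of G1 entry chosen after their values were seen, were at 0.70 and 0.89. DNA repair genes went both ways, with PARPBP at 2.66, RAD51AP1 at 2.496 and ERCC8 at 2.28 higher, and MSH6 at 0.455 and FANCI at 0.482 lower, of 31 measured. FANCL, the ubiquitin ligase of the Fanconi pathway, was at 1.41.

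**Figure D3:**
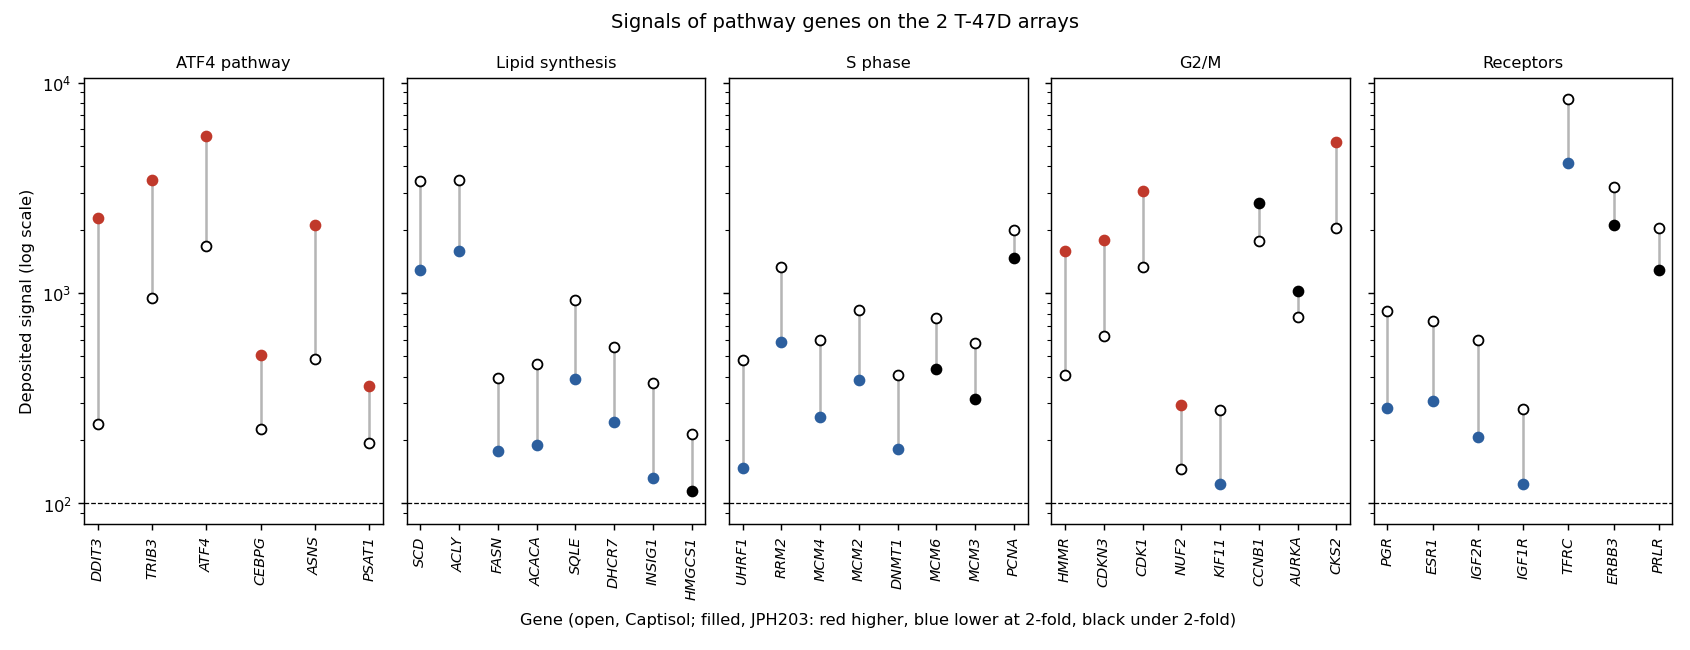
Deposited signal on a log y axis for genes on the x axis, with open circles for Captisol and filled circles for JPH203, each circle being 1 T-47D array. Red rose, blue fell and black stayed under 2-fold (black genes were chosen after their values were seen); the dashed line marks a signal of 100, and the ATF4 genes move up, for example DDIT3 from 238 to 2269, while the lipid genes move down, for example SCD from 3414 to 1289.

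Several hormone and growth factor receptors fell. Of 24 measured genes of the estrogen receptor list 3 fell and none rose, beside 1.77% of all genes that fell, with a median of -0.35. ESR1, the estrogen receptor, had a signal of 735 with Captisol and 308 with JPH203, a ratio of 0.436 on its only probe set above the minimum. PGR, the progesterone receptor and a classical estrogen target, had 825 and 285, a ratio of 0.359, with a second probe set at 267 and 126, a ratio of 0.525. ABAT, a transaminase of GABA breakdown, had 648 and 256, a ratio of 0.415, with a second probe set at 0.413. Not every estrogen target moved this way, since TFF1 and RERG, chosen after their values were seen, were at 1.30 and 1.89. Among luminal identity genes TFAP2A, an AP-2 transcription factor, was at 0.459, TRPS1, a GATA-type repressor, at 0.489, and CDH1, E-cadherin, at 0.490, whereas AGR3, a disulfide isomerase relative, rose from 1323 to 4248, a ratio of 2.81. The CDH1 call was lost without trend removal, where its log2 ratio was -0.72, and so was that of TRPS1, at -0.97. Of 21 measured growth factor receptor and insulin signalling genes IGF2R and IGF1R fell and none rose, beside the same 1.77%, with a median of -0.48. IGF2R, the mannose 6-phosphate receptor that clears IGF2, had 597 and 206, a ratio of 0.367, and IGF1R, the receptor for IGF1, had 281 and 124, a ratio of 0.489. Second probe sets were at 0.534 and 0.512.

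In the list of ion channels, pumps and metal transport 4 of 28 measured genes rose and 5 fell, beside 2.64% and 1.77% of all genes, with a median of -0.20. TFRC, the transferrin receptor, had the highest signal of the genes that fell, 8403 with Captisol and 4169 with JPH203, a ratio of 0.384, with a second probe set at 0.374. With median centring in place of trend removal its log2 ratio was -0.99. SLC11A2, which carries iron out of endosomes, fell from 736 to 309, a ratio of 0.437. ATP2A2, the calcium pump of the endoplasmic reticulum, fell to 0.463 and ATP13A3, a polyamine-transporting ATPase, to 0.351. The fifth was TRPS1, a transcription factor and not a transporter. The metallothioneins MT1F, MT1G and MT1H, which bind zinc and copper, rose to 2.18, 2.17 and 2.03, with 163 and 326 for MT1F. All 3 calls were lost without trend removal, where the ratios were 1.998, 1.98 and 1.88. Probe sets of metallothionein genes can cross-hybridize because the genes are near-identical, so these are not separate readings. CLIC4, an intracellular chloride channel protein, rose from 312 to 709, a ratio of 2.37.

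Junction and adhesion genes were mostly below their control signal. Of all genes, 3200 of 6451 had a ratio below 1 and 1.77% fell. In the junction list 28 of 30 genes had a ratio below 1 and 3 fell, with a median of -0.46. These were DSP, the desmosomal plaque protein desmoplakin, from 4797 to 2500 at 0.433, DLG5, a polarity scaffold, at 0.462, and CDH1. The DSP call was lost without trend removal, where its log2 ratio was -0.94. Of 21 genes of integrins and adhesion 20 were below 1 and 2 fell, L1CAM, a cell adhesion molecule, at 0.368 and LAMC1, a laminin chain, at 0.483. CTTN, cortactin, was at 0.438 on its brightest probe set and 1.47 on another. YAP1, the Hippo pathway coactivator, stood at 0.50 and did not pass. Of 17 glycolysis genes above the minimum on both arrays none reached 2-fold, but 15 were below 1 and the median was -0.54. PKM and PFKL, a pyruvate kinase and a phosphofructokinase named after their values were seen, lay under 100 with JPH203, at 205 and 97.2 and at 203.4 and 91.2. On the deposited signals they were at least 2.05-fold and 2.03-fold lower. These bounds have no trend removed and cannot be set against the 2-fold threshold used for the other ratios. The brightest were GAPDH at 0.74, PGK1 at 0.69 and ENO1 at 0.56. The 10 measured reference genes commonly taken as stably expressed include TFRC, which fell. They had a median of -0.39 after trend removal and 0.07 on the deposited scale, so the sign of their shift depends on the scaling.

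**Figure D4:**
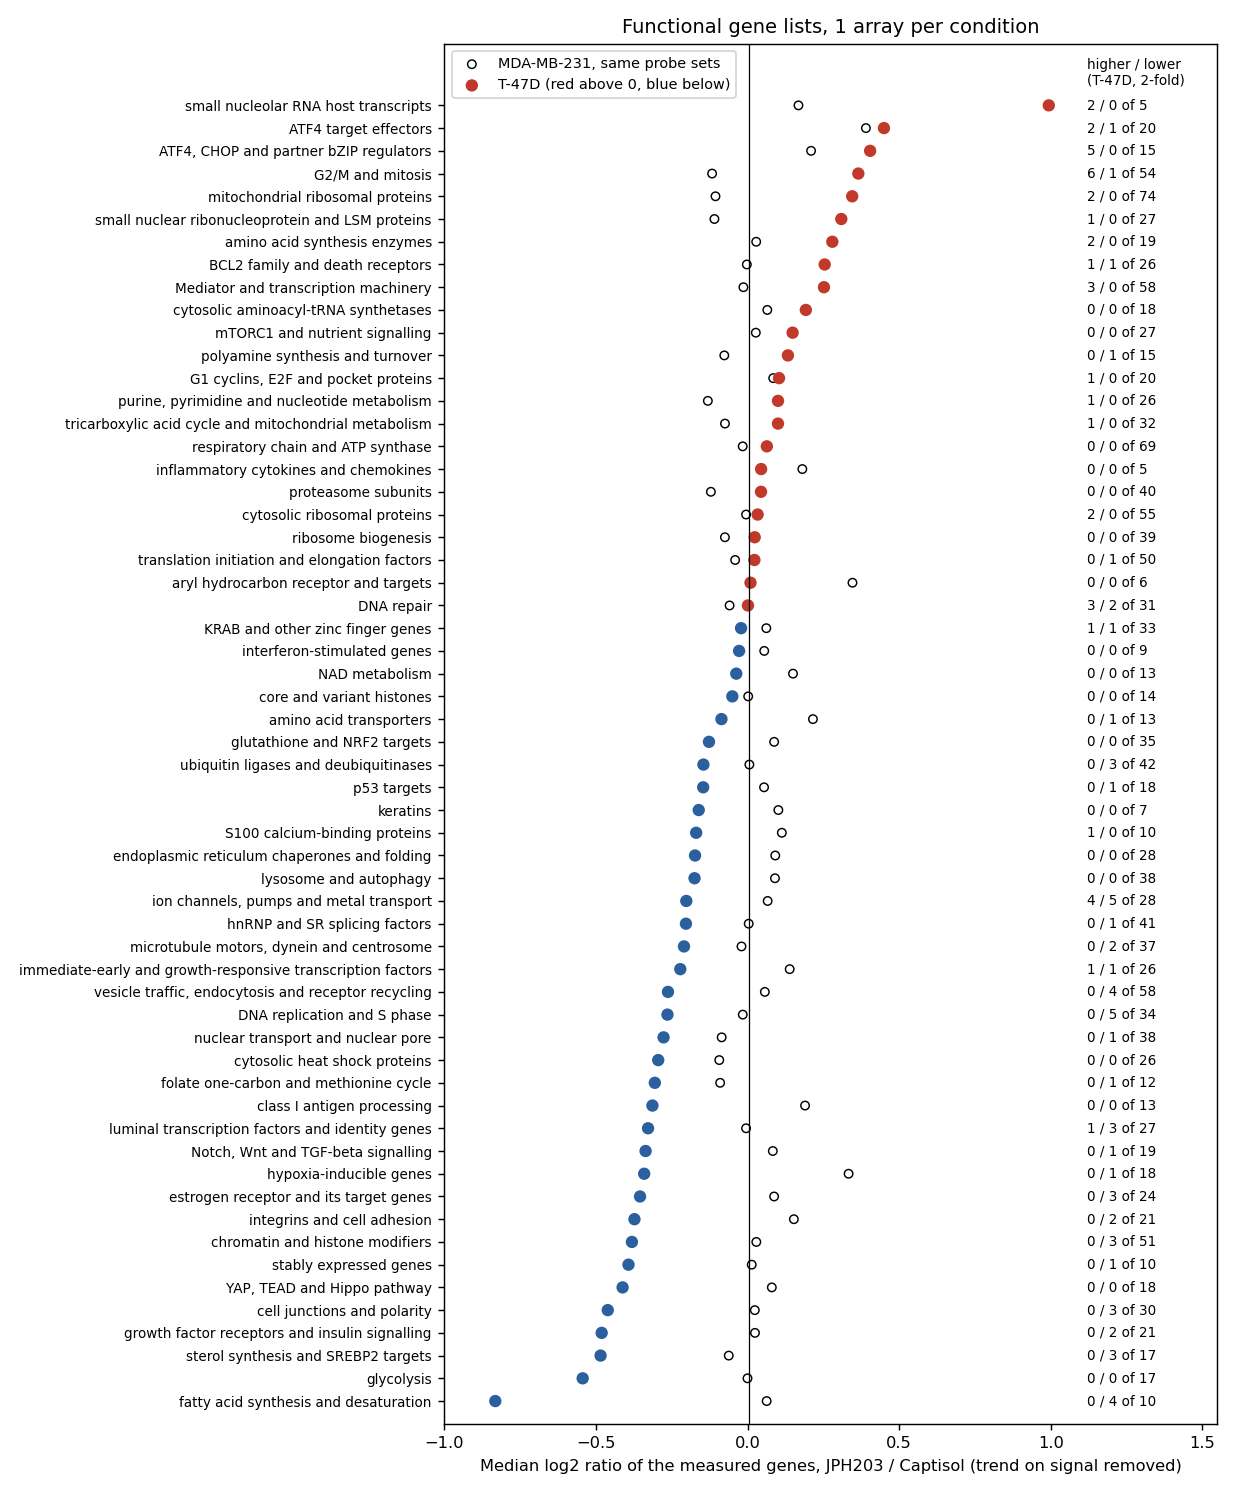
Median log2 ratio of JPH203 over Captisol (x axis) for gene lists with at least 5 measured genes (y axis), with filled points for T-47D cells and open points for the same probe sets in MDA-MB-231 cells, 1 array per condition. Numbers at the right count the genes that rose and fell of those measured in T-47D cells. Fatty acid synthesis is lowest at -0.83, and the ATF4 effectors lie at 0.45 in T-47D and 0.39 in MDA-MB-231 cells.

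Lists of translation and transcription differed from each other. Of all genes 2.64% rose and 1.77% fell. A ratio above 1 was seen in 3251 of 6451 and a ratio below 1 in 3200. Of 74 measured mitochondrial ribosomal proteins 67 had a ratio above 1, with a median of 0.35. Only MRPL1, from 339 to 1063 at 3.21, and MRPL13, from 1025 to 2466 at 2.21, rose, a count near the share of all genes. The 55 cytosolic ribosomal proteins had a median of 0.03 after trend removal and 0.55 on the deposited scale, so their direction rests on the scaling. Among them RPL22L1 and RPL39L, paralogs of the standard subunits RPL22 and RPL39, rose to 3.39 and 2.08. Of 5 snoRNA host transcripts, whose introns hold small nucleolar RNAs, EPB41L4A-AS1 rose to 3.29 and SNHG32 to 2.52. In the Mediator and transcription list, MED21 and MED7, subunits of the Mediator middle module, rose to 2.37 and 2.12 with a second probe set of MED21 at 2.15, and POLR2F, a subunit shared by the RNA polymerases, to 2.03. SNRNP27, a protein of the U4/U6.U5 particle, rose to 2.21. EIF3A, the largest scaffold subunit of eIF3, fell from 1024 to 490, a ratio of 0.482, with a second probe set at 0.429. Of 51 chromatin regulators 3 fell and 36 were below 1, with a median of -0.38. Among them SMARCA4, the BRG1 ATPase, fell from 956 to 457, a ratio of 0.486.

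In the p53 target list of 18 measured genes BTG1 alone reached 2-fold, and in the BCL2 list MCL1 and BNIP1 did, beside 4.4% of all genes. BTG1, an antiproliferative cofactor of mRNA decay, fell from 2999 to 1410, a ratio of 0.419, with a second probe set at 0.517. MCL1, an antiapoptotic BCL2 relative with a short-lived mRNA, fell from 1169 to 525, a ratio of 0.449, with a second at 0.605. BNIP1, a BCL2-interacting SNARE, rose from 204 to 388, a ratio of 2.04 that was 1.899 without trend removal. The other 24 of the 26 measured genes of the BCL2 and death receptor list stayed under 2-fold, with TNFRSF10B, the death receptor induced by CHOP and chosen after its value was seen, at 1.45. No gene reached 2-fold among 38 measured lysosome and autophagy genes, 28 chaperones of the endoplasmic reticulum, 26 cytosolic heat shock proteins, 35 glutathione and NRF2 targets or 27 mTORC1 and nutrient signalling genes. With 4.4% of all genes at 2-fold, few calls would fall in lists of this size. No lack of response is read from these counts. HSPA5, encoding the chaperone BiP, was at 0.74.

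Some of the supported genes in none of the groups above are given next. Others, such as KRCC1 at 3.24 and TCAF1 at 0.373, are not described further. SKAP2, an adaptor of Src kinase signalling, had 167 and 609, a ratio of 3.90, with other probe sets at 2.69 and 3.92. RSL24D1, a factor of large ribosomal subunit maturation, had 1288 and 4596, a ratio of 3.11, with a second at 3.30. CRBN, the cereblon substrate receptor of a ubiquitin ligase, had 492 and 1124, a ratio of 2.29, with a second at 2.44. GEMIN2, of the complex that assembles spliceosomal particles, was at 2.21 with 4 probe sets between 2.08 and 2.21. COMMD2 at 3.20, UGGT2, a glycoprotein folding sensor, at 3.16, TXNDC9 at 2.55 and RBIS at 2.24 rose likewise. On the other side LTBP1, which holds latent TGF-beta in the matrix, fell from 958 to 338, a ratio of 0.362. TIMP2, a metalloproteinase inhibitor, fell from 2156 to 937, a ratio of 0.405 with others at 0.506 and 1.02. ANK3, ankyrin-G, PLOD2, a collagen lysyl hydroxylase, LRBA and SORL1, both of vesicle traffic, USP9X, a deubiquitinase, and CPD, a carboxypeptidase, fell to between 0.406 and 0.431. Rises on single probe sets included SH3BGR at 4.58, S100P, a calcium-binding protein, at 4.3998, from 288 to 1237, and IFRD1, a transcriptional coregulator, at 4.15, from 114 to 430.

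Some genes could be given only a bound, because 1 T-47D array lay under 100 and the other at 200 or more. For 15 genes this was the Captisol array and for 24 the JPH203 array. Bounds are the brighter deposited signal over 100, with no trend removed. Only some of these genes are named here. CSTA, a cysteine protease inhibitor, was at least 4.22-fold higher, with 45.2 and 422. GDF15, a stress cytokine of the ATF4 effector list, was at least 3.47-fold higher, with 86.4 and 347. LAMP3, a lysosomal membrane protein, was at least 3.13-fold higher, with 38.6 and 313. CYP1A1, a cytochrome P450 induced through the aryl hydrocarbon receptor, was at least 2.59-fold higher, with 26.8 and 259, and the same probe set had 69.7 and 215 in MDA-MB-231 cells. CYP1B1, a related enzyme, had a ratio of 1.17 in T-47D cells. Among the lower genes were UPF2, of nonsense-mediated decay, at least 2.49-fold with 249 and 91.1, and NPC1, the lysosomal cholesterol transporter of the sterol and lysosome lists, at least 2.19-fold with 219 and 92.4.

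The genes that fell were longer than those that rose. Their median genomic length, from the RefSeq annotation of GRCh38.p14, was 73.6 kb against 20.3 kb for those that rose and 27.1 kb for all genes. In 4 groups of equal size by length, 0.620% of the shortest and 4.28% of the longest genes fell, while 3.04% and 2.11% rose. The median log2 ratio went from 0.09 in the shortest group to -0.20 in the longest, and for the same probe sets it stayed between -0.01 and 0.02 in MDA-MB-231 cells. Gene length also differed between the lists, with a median of 10.1 kb for mitochondrial ribosomal proteins, 23.1 kb for DNA replication, 39.3 kb for fatty acid synthesis, 55.4 kb for chromatin regulators and 87.6 kb for growth factor receptors. With the trend on length removed, 167 genes were higher and 83 lower, of which 136 and 71 were among the 170 and 114. ESR1 at -0.95, IGF1R at -0.79, SMARCA4 at -0.85, DNMT1 at -0.97 and ACACA at -0.94 on the log2 scale were then under 2-fold. PGR, SCD, ACLY, UHRF1, RRM2 and IGF2R stayed past it. Long noncoding RNAs were 11 of the 170 genes that rose, 6.47%, and 0 of the 114 that fell, beside 94 of all 6451, 1.46%. The part of gene length, RNA quality and transcript type in the other results was not tested.

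**Figure D5:**
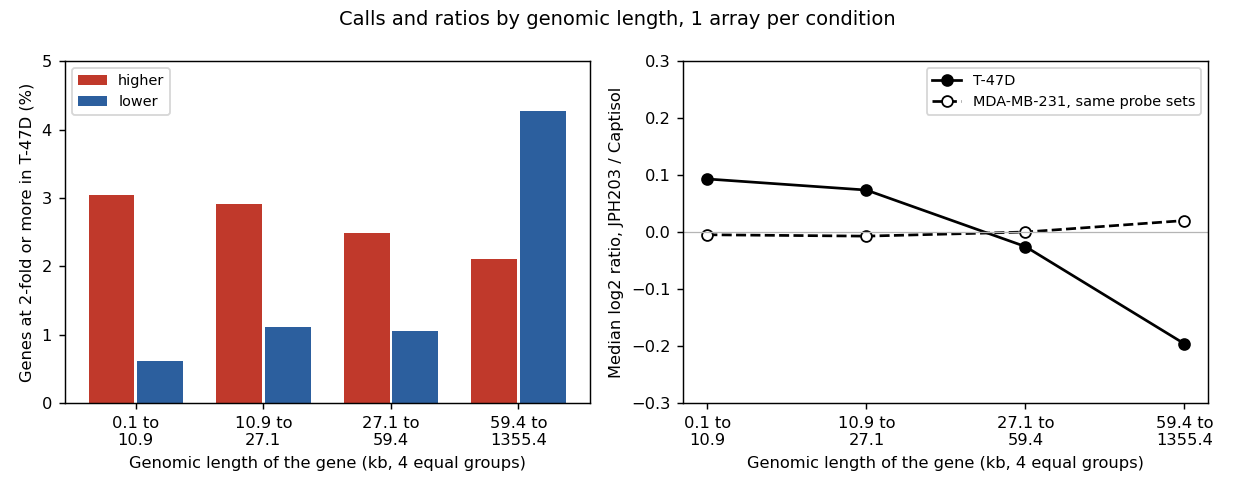
The 6451 T-47D genes were split into 4 groups of equal size by genomic length in kb (x axes). Bars give the percent of genes that rose (red) or fell (blue), with 4.28% falling in the longest group against 0.620% in the shortest; lines give the median log2 ratio in T-47D cells (filled) and, for the same probe sets, in MDA-MB-231 cells (open).

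Most of these genes stayed within 1.5-fold in MDA-MB-231 cells, but so did most genes measured there. The central range of MDA-MB-231 ratios given above, 0.776 to 1.32, lies inside 1.5-fold, and 0.103% of genes reached 2-fold in either direction. The counts that follow are therefore not read as particular to the genes called in T-47D cells. Of the 170 genes that rose in T-47D cells, 134 were above the minimum on both MDA-MB-231 arrays, and 132 of them stayed within 1.5-fold, the exceptions being ASNS and PSAT1. Of the 114 that fell, 89 were above it and 88 stayed within 1.5-fold, the exception being NDRG1, a stress-responsive growth suppressor. Thus SCD was at 1.39 in MDA-MB-231 cells, RRM2 at 0.929, TFRC at 1.01 and HMMR at 0.873. The values of both lines were set side by side only, and no test of the difference between the lines was possible. MDA-MB-231 ratios of DDIT3, TRIB3 and ATF4 are not given singly here.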

How the data were processed

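For each probe set the authors deposited 1 signal intensity on a linear scale, made with GCOS; its version is not given in the sources used here. After trimming 2% of values at either end, the array means lay between 99.2 and 99.4. Between 10831 and 11857 probe sets per array reached a signal of 100, and 1 array per condition limits the precision. Of 54675 probe sets, 41097 named 1 gene and 11777 are unnamed here. The log2 ratio of JPH203 over Captisol was computed for 10258 T-47D probe sets at 100 on both arrays, and a lowess trend on mean log2 signal (span 0.4) was subtracted. Gene values came from the brightest of these probe sets naming 1 gene, called at 2-fold, the threshold the study states. No test was run. The members and gene lists were chosen with earlier results of these data known. Named genes were drawn from several sets, and not every member of a set is named. The sets were up to 8 genes per list at 2-fold, supported first, or the 3 brightest. Further sets were the 20 largest supported and 10 largest of all changes. The last were the 12 brightest bounds, genes the study names and opposed probe sets. Any other gene is marked. Of the lists, 1 is not reported here. The procedure was tested on simulated data. Alternatives covered trend, scaling, minimum signal, pseudocount, threshold and probe set choice. Python 3.11.15, numpy 2.4.6, pandas 2.3.3, statsmodels 0.14.6 and matplotlib 3.10.9 were used.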

Additional observations from a re-analysis of the deposited data

Results flagged for a closer look

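NDRG1 fell in T-47D cells, with signals of 436 and 170 and a ratio of 0.419, whereas the same probe set had 439 and 688.5 in MDA-MB-231 cells, a ratio of 1.5798, on the opposite side of 1. It rested on 1 probe set above the minimum in T-47D cells, and the difference between the lines was not tested.

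Probe sets that are unnamed here or name several genes lie outside the gene counts. Of 1066 such probe sets that reached 100 on the Captisol as well as the JPH203 array, 47 (4.41%) changed 2-fold with JPH203, 34 higher and 13 lower, with ratios from 0.307 to 5.85. No gene is given for them.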

How the results depend on the processing

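The counts of 170 genes higher and 114 lower stayed within 1.5 times under no trend removal, other spans, median centring, quantile normalization, a length trend, a pseudocount of 16, and the mean or median of probe sets. The genes changed more than the counts, since 118 of the 170 and 105 of the 114 were called without trend removal and 129 and 102 with median centring. The counts moved to 19 and 1655 after poly-A scaling, 109 and 73 at a minimum of 200, 601 and 271 with no minimum and a pseudocount of 16, 700 and 709 at 1.5-fold, 24 and 2 at 3-fold, and 41 and 40 for supported genes alone. The lower count alone moved to 194 at a minimum of 50, 223 with 1 array above the minimum, and 72 without _x_at and _s_at probe sets. No called gene reversed. Relative to all genes, the keratin list turned to 0.19 without trend removal, with median centring or poly-A scaling, the p53 target list to 0.22 at a minimum of 200, and the polyamine list to -0.15 with no minimum. The cause was not tested. No paired analysis was possible because each condition has 1 array, and for the same reason no replicate could be left out.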

Other observations

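Of 14 gene families recognised by their symbols after the values were seen, 7 are described first, by counts and with no test, beside 2.64% of all genes that rose, 1.77% that fell and 3251 of 6451 with a ratio above 1. All 11 measured intraflagellar transport genes, which build and maintain the cilium, had a ratio above 1, with a median log2 ratio of 0.62. IFT20 rose from 679 to 1624, a ratio of 2.31, and IFT52 from 247 to 537, a ratio of 2.30, while IFT88 was at 1.09. Of 7 measured cilium and flagellum associated genes, CFAP300 rose from 105.5 to 295, a ratio of 3.10 with a second probe set at 2.49, and CFAP36 to 2.35, and 4 of the 7 were above 1. All 11 measured assembly factors of respiratory complexes I and II were above 1 as well, with a median of 0.47. SDHAF4 at 2.26, NDUFAF4 at 2.08 and NDUFAF5 at 2.01 rose, the last 2 with ratios of 1.997 and 1.85 without trend removal, whereas the 69 measured subunits of the respiratory chain and ATP synthase had a median of 0.06 and none reached 2-fold.

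Of 35 measured antisense transcripts named for a neighbouring gene 29 were above 1 and 5 rose, and none fell. All 3 measured nuclear factor I genes, which encode DNA-binding transcription factors, were below 1. NFIB fell from 742 to 318, a ratio of 0.446, with 3 other probe sets between 0.477 and 0.554, NFIA fell to 0.497, and NFIC was at 0.555. The 4 measured collagen genes were also below 1, with COL12A1 falling from 335 to 116, a ratio of 0.383, and COL4A5 from 471 to 208, a ratio of 0.472. Of 4 measured SMC genes, which form the cohesin and condensin rings, SMC1A fell from 956 to 348, a ratio of 0.374. The other 7 families are given by their counts alone. Of 9 measured charged multivesicular body (CHMP) genes 4 were above 1 and 1 rose, with a median of -0.07. Of 9 RNA exosome genes 7 were above 1 and 1 rose, and of 6 ZFAND genes 4 were above 1 and 2 rose. Of 6 GEMIN genes 5 were above 1 and 2 rose, and all 4 origin recognition genes were above 1 and 2 rose. All 5 measured MCM genes were below 1 and 2 fell, and all 5 metallothioneins were above 1 and 3 rose.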
